A study of Gallus gallus with 24 samples.

Results

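In DF1 cells, a spontaneously immortalised line of chicken embryonic fibroblasts, 160 genes had a lower mRNA level at 6 h of poly(I:C) than at 0 h both in wild-type cells and in cells with a knockdown of IRF9. They were chosen from 9319 genes with a mean of at least 5 CPM (counts scaled to 1000000 gene counts per library) over the 0 h and 6 h libraries, and make up 1.72% of them. A gene entered if its mean log2(CPM + 1) at 6 h minus that at 0 h was -0.35 or less in each genotype. TLR3, MAP2K6, TRAIL-LIKE and EDA2R and all genes whose symbols begin with HOX, COL, RPL, RPS or J6367_ had been set aside by name, and 14 of these met the same criteria. Since measured values at 0 h and 6 h chose the genes, their differences between those times are given as a description. Counts of genes called for that contrast are printed further below, but they are no test of the set.

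The series concerns IRF9 in innate antiviral immunity of chickens. Poly(A)-selected RNA gave 24 libraries, which fall into 8 groups of 3. Wild-type cells, labelled Mock, were collected after poly(I:C), an artificial double-stranded RNA, at the 4 times 0 h, 30 min, 1 h and 6 h, and the IRF9 knockdown cells, labelled IRF9, at those times too. The labels name poly(I:C) for all 8 groups, those at 0 h included, and no cells kept without it to 30 min, 1 h or 6 h were analysed here, so time in culture and the agent cannot be told apart. The sources used here do not say how the knockdown was made or how the agent was applied, all groups come from 1 cell line, and nothing says that replicates were separate cultures. P-values therefore measure only the spread between these libraries, which may be technical.

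Double-stranded RNA is read by innate sensors that switch on interferon and interferon-stimulated genes, and in mammals IRF9 acts in a complex with STAT2 that drives those genes. In mammalian cells, double-stranded RNA also sets off the enzymes OAS and RNase L, the second of which cleaves cellular RNA. Connective tissue fibroblasts are known for making collagen and other matrix, for cytoskeletal tension and for keeping patterning transcription factors of their embryonic position, and these functions organise the account below.

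Each library held 12174030 to 19974065 counts in genes, so that 3 counts correspond to 0.150 to 0.246 CPM, a floor that covers counting error only. IRF9 (chromosome 20, 10406021 to 10408887, GRCg7b; the reference lists IRF10 as another name) was at 28.8, 28.4 and 27.0 CPM in Mock at 0 h and at 15.7, 15.9 and 21.8 CPM in the knockdown. At 30 min the Mock libraries had 43.0, 31.5 and 28.8 CPM and the knockdown libraries 12.7, 16.3 and 19.5 CPM, and at 1 h they had 24.7, 30.2 and 27.2 CPM and 11.97, 13.7 and 20.4 CPM. At 6 h the values were 32.3, 32.9 and 32.1 CPM in Mock and 20.2, 20.0 and 23.1 CPM in the knockdown, so the genotypes did not overlap at any time. Over 30 min and 1 h the log2 difference was -0.96 (SE 0.13, adjusted p = 0.00124) by edgeR's quasi-likelihood test with Benjamini-Hochberg adjustment over 13000 genes. In a fit of the 12 libraries of 30 min and 1 h alone the adjusted p was 0.102. With both times summed per replicate number, in a fit chosen after seeing the data, 0 of 13053 genes had an adjusted p under 0.05 by edgeR. IRF9 was thus not under it in that fit either. In the fit of all libraries, no gene, IRF9 included, had an adjusted p under 0.05 at 1 h alone. At 30 min alone IRF9 was under 0.05 in that fit, but not in 6 alternative settings. Of 15 fibroblast markers in the files, 12 had a mean of at least 5 CPM, and the 15 summed to 5432 to 7007 CPM per library, whereas 11 epithelial markers summed to at most 2.37 CPM and 11 skeletal muscle markers to at most 5.71 CPM. Most of the fibroblast sum at 0 h and 6 h came from FN1, VIM and CDH2. PDGFRA, S100A4 and CDH11 were at most 2.86, 0.475 and 3.83 CPM at those times. The 11 neural markers summed to 225 to 524 CPM and the 8 endothelial markers to 179.8 to 305 CPM, nearly all of it from ERG. The 10 macrophage and leukocyte markers summed to 20.6 to 24.9 CPM in Mock and 22.6 to 24.8 CPM in the knockdown at 0 h, and to 33.4 to 40.9 and 34.2 to 39.0 CPM at 6 h. Most of that difference came from CD3E, while C1QA and C1QB had no count and SPI1 at most 0.315 CPM at 0 h and 6 h, and its part in the results was not tested.

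The 4 Mock libraries numbered replicate 2 stood apart in these genes. At 0 h, 137 of the 160 genes were higher in that library than in both other Mock libraries, and at 30 min, 1 h and 6 h the counts were 128, 140 and 103. Among all 9319 genes the same held for 46.3, 42.7, 47.5 and 40.4% at those times. In the middle of the gene set, Mock replicate 2 lay above the mean of the other 2 libraries by 0.39, 0.45, 0.46 and 0.28 on the log2(CPM + 1) scale. Some results that rest on Mock are therefore also given without these libraries. The genotype gaps, functional groups and pathway lists below are given with them only.

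The 6 h levels were moderate reductions, not losses. In Mock the mean CPM at 6 h was 41.0 to 79.1% of that at 0 h, with a median of 70.5%, and in the knockdown it was 36.1 to 77.5%, with a median of 69.5%. On the log2 scale the median difference was -0.48 in Mock and -0.49 in the knockdown, against -0.05 and -0.04 over all 9319 genes, a contrast the choice itself sets. The mean of both differences lay below -0.7 in 20 genes and above -0.5 in 84. All 3 libraries at 6 h lay below all 3 at 0 h for 89 of the genes in Mock, where 8.95% of all genes did so, and for 142 in the knockdown, where 18.7% did, with 83 genes in both. Without Mock replicate 2, all 160 genes were lower at 6 h in Mock, with a median of -0.46, and 125 were at or under -0.35. With the 2 remaining libraries per time, 142 of the genes did not overlap in Mock, where 25.3% of all genes did not. The libraries counted here also chose the genes, so the counts with and without replicate 2 are a description and no check of the set. In bulk RNA, fewer cells that express a gene and less of its RNA per cell cannot be told apart.

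**Figure D1:**
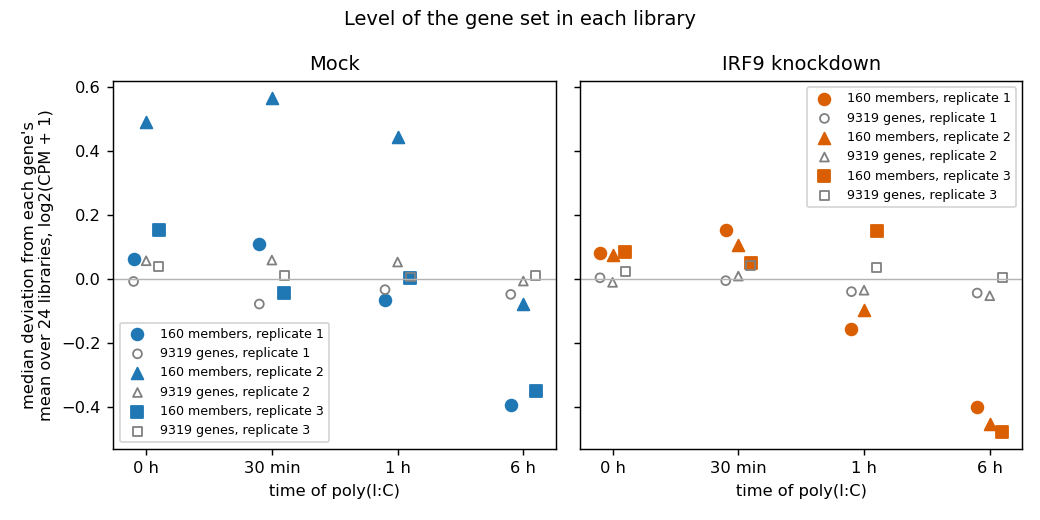
Median over the 160 genes of each library's deviation from the gene's mean over all 24 libraries, on the log2(CPM + 1) scale (vertical axis), by time and genotype. Filled symbols are the 160 genes, open symbols all 9319 genes, and the shape gives the replicate number. The knockdown libraries at 6 h sit between -0.48 and -0.40, those of Mock at 6 h between -0.39 and -0.08, and Mock replicate 2 (triangles) lies above the other Mock libraries at every time.

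The difference between knockdown and Mock in the 6 h minus 0 h value was within 0.2 on the log2 scale for 135 of the 160 genes, 84.4% of them, and for 81.4% of all 9319 genes. Its median over the set was -0.01, and 82 genes had the larger reduction in the knockdown. The choice asked for a low value in both genotypes, so nothing is read from how alike they are. SYT13, a synaptotagmin of membrane traffic, had the widest gap, with -0.72 in Mock and -1.26 in the knockdown. ZNF462, a zinc finger protein, and SYNE1, the nesprin-1 linker of nucleus and cytoskeleton, also had lower values in the knockdown, at -0.82 and -0.77 against -0.44 and -0.40 in Mock. In the other direction stood APCDD1, a membrane-bound Wnt inhibitor, with -1.10 in Mock and -0.71 in the knockdown, and SYNM, the intermediate filament protein synemin, with -0.94 in Mock and -0.66 in the knockdown. None of these gaps was tested, because the choice used the same contrast.

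**Figure D2:**
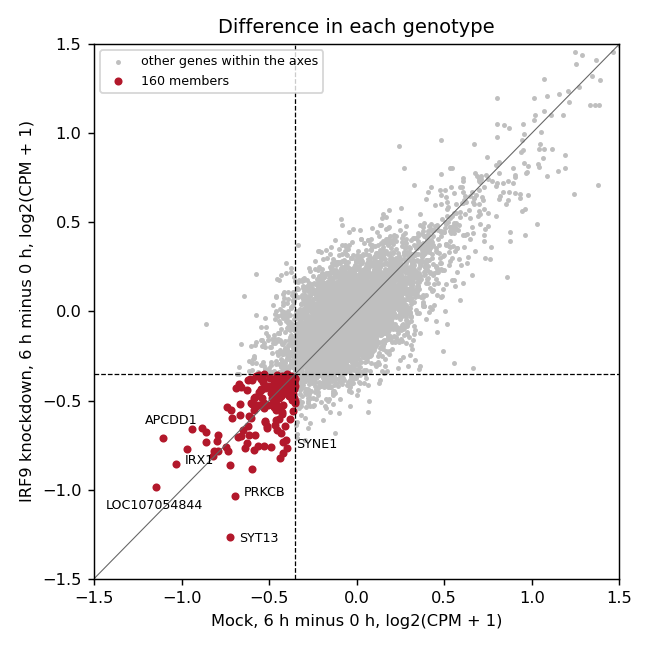
Difference of mean log2(CPM + 1) between 6 h and 0 h in Mock (horizontal axis) and in the knockdown (vertical axis); each point is a gene, red for the 160 chosen genes and grey for other genes within the axes. Dashed lines mark the threshold of -0.35 and the diagonal marks equal differences; SYT13 lies farthest below the diagonal and APCDD1 farthest above it among the red points.

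Transcription factors and nuclear regulators made up 20 of the genes, with median differences of -0.57 in Mock and -0.59 in the knockdown. IRX1 (chromosome 2, 86732104 to 86738242), an Iroquois homeobox factor of embryonic patterning, was at 10.99, 11.7 and 8.90 CPM at 0 h in Mock and at 3.48, 5.01 and 5.57 CPM at 6 h. The knockdown libraries had 7.12, 8.76 and 7.39 CPM at 0 h and 5.02, 3.15 and 3.49 CPM at 6 h. In neither genotype did the 2 times overlap, and the 6 h mean was 44.5% and 50.1% of the 0 h mean. MAB21L2 (chromosome 4, 32584136 to 32585575), a nuclear protein needed for eye development in the mouse, had 249, 256 and 253 CPM at 0 h in Mock, 360.1, 282 and 244 CPM at 30 min, 189, 254 and 209.7 CPM at 1 h and 147, 107 and 161 CPM at 6 h. Its knockdown libraries went from 238, 241 and 268 CPM at 0 h to 172, 147 and 156 CPM at 6 h, again without overlap. MAB21L2 lies inside LRBA, a large gene of vesicle traffic that is also in the set (-0.61 in Mock and -0.38 in the knockdown). Which strand setting HTSeq was run with is unstated, so the pair's counts are uncertain, and how reads were split between them was not tested.

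ZNF469, a large zinc finger gene in which human variants cause brittle cornea syndrome (chromosome 11, 17848600 to 17982791), had 74.4, 95.4 and 86.3 CPM at 0 h and 52.7, 46.7 and 51.6 CPM at 6 h in Mock. The knockdown libraries had 72.7, 68.8 and 85.3 CPM and 44.8, 42.3 and 44.8 CPM. All libraries at 6 h were below all those at 0 h, and its 6 h means of 50.3 ± 3.20 and 44.0 ± 1.43 CPM (SD, n = 3) had a small spread. ZNF703, a zinc finger co-repressor, and ZNF395, another zinc finger protein, differed by -0.80 and -0.79 in Mock and by -0.73 and -0.69 in the knockdown.

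Several other regulators of this group belong to known families. Nuclear factor I members NFIA and NFIX differed by -0.60 and -0.58 in Mock and by -0.60 and -0.53 in the knockdown. Among nuclear receptors, THRA, which binds thyroid hormone, and its partner RXRA stood nearer the threshold, at -0.40 and -0.38 in Mock and -0.41 and -0.37 in the knockdown. The aryl hydrocarbon receptor gene AHR1B differed by -0.67 in Mock and -0.58 in the knockdown. ALX4, a homeobox factor of limb patterning, differed by -0.58 in Mock and -0.48 in the knockdown.

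Wnt, Hedgehog, TGF-beta and guidance signalling contributed 14 genes, with medians of -0.58 in both genotypes. APCDD1 (chromosome 2, 97929792 to 97960654) had 41.1, 99.7 and 52.9 CPM at 0 h and 22.4, 43.1 and 21.3 CPM at 6 h in Mock, where replicate 2 was high at both times and the times overlapped. The knockdown libraries had 39.4, 39.2 and 42.1 CPM and 26.3, 25.2 and 21.3 CPM, without overlap. APC2, a relative of APC in the control of beta-catenin (chromosome 28, 3648313 to 3662273), had 13.9, 19.0 and 17.5 CPM and 7.80, 9.36 and 10.7 CPM at 0 h and 6 h in Mock. Its knockdown values were 16.4, 15.6 and 17.4 CPM and 9.43, 8.31 and 9.79 CPM, so neither genotype showed overlap. FZD2, a Wnt receptor, and TLE3, a Groucho co-repressor that acts with TCF factors, differed by -0.54 and -0.51 in Mock and by -0.44 and -0.42 in the knockdown.

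RGMA, a membrane-anchored guidance molecule that also acts as a BMP co-receptor (chromosome 10, 14685488 to 14707833), had 7.23, 11.9 and 11.6 CPM at 0 h in Mock, 12.6, 14.6 and 9.21 CPM at 30 min, 6.45, 5.96 and 9.32 CPM at 1 h and 6.64, 6.82 and 5.51 CPM at 6 h. The knockdown had 8.13, 10.1 and 10.5 CPM, 10.4, 10.2 and 10.8 CPM, 4.91, 5.96 and 7.75 CPM and 3.53, 6.17 and 4.70 CPM at the same times. In the knockdown the 30 min libraries were all above those of 1 h, while in Mock the highest 1 h library (9.32 CPM) was just above the lowest of 30 min (9.21 CPM). The co-receptor for TGF-beta ligands, TGFBR3, differed by -0.60 in Mock and -0.39 in the knockdown. Of the Hedgehog pathway, the effector GLI2 differed by -0.48 in Mock and -0.49 in the knockdown, and the co-receptor CDON by -0.43 in Mock and -0.36 in the knockdown.

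Genes known from axon guidance were NTN3, a netrin, its family's receptor UNC5B, the microtubule-binding navigators NAV1 and NAV2, and SRGAP3, a GTPase-activating protein of Slit-Robo signalling. Their differences in Mock were -0.65, -0.37, -0.39, -0.56 and -0.44 in that order, and in the knockdown -0.67, -0.50, -0.41, -0.76 and -0.45. PDZRN3, a ubiquitin ligase, differed by -0.74 in Mock and -0.78 in the knockdown, and in Mock its times overlapped.

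Extracellular matrix, collagen handling and adhesion counted 18 genes, with medians of -0.46 in Mock and -0.52 in the knockdown. MXRA8, a cell surface protein that alphaviruses use as a receptor in mammals (chromosome 21, 2233946 to 2262772), had 272, 471 and 362 CPM at 0 h and 153, 249.6 and 223 CPM at 6 h in Mock. The knockdown libraries had 269, 277 and 335 CPM and 172, 149 and 191 CPM. The 6 h libraries were below those of 0 h throughout, at 56.5% of the mean in Mock and 58.0% in the knockdown. SERPINH1, the collagen chaperone HSP47 (chromosome 1, 195370322 to 195377125), was at 382, 534 and 421 CPM at 0 h and 237, 426 and 320.2 CPM at 6 h in Mock, where replicate 2 at 6 h overlapped the 0 h libraries. In the knockdown it was at 418, 386 and 410.2 CPM and 253, 231 and 300.1 CPM, without overlap.

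Collagen receptors were present as ITGA11, an integrin subunit, and DDR1, a receptor kinase, with -0.47 and -0.53 in Mock and -0.50 and -0.75 in the knockdown. TRAM2, which takes part in collagen synthesis, lay near the threshold with -0.37 in Mock and -0.38 in the knockdown. A further 5 collagen genes would have met the numerical criteria but were set aside by name, COL1A2 with -0.58 in Mock and -0.68 in the knockdown, and COL3A1, COL5A1, COL7A1 and COL18A1. DCHS1, an atypical cadherin that binds FAT4 (chromosome 1, 196209609 to 196288259), had the highest mean CPM of the set, a value that does not correct for transcript length. It was at 538, 696 and 525 CPM at 0 h and 436, 487 and 387 CPM at 6 h in Mock, and at 529, 552 and 523 CPM and 423, 375 and 324 CPM in the knockdown. DCHS1 shares part of its span with LCMT2, which differed by 0.17 in Mock and 0.01 in the knockdown. METRNL, a secreted protein, differed by -0.86 in Mock and -0.73 in the knockdown, with overlap between times in the knockdown only.

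**Figure D3:**
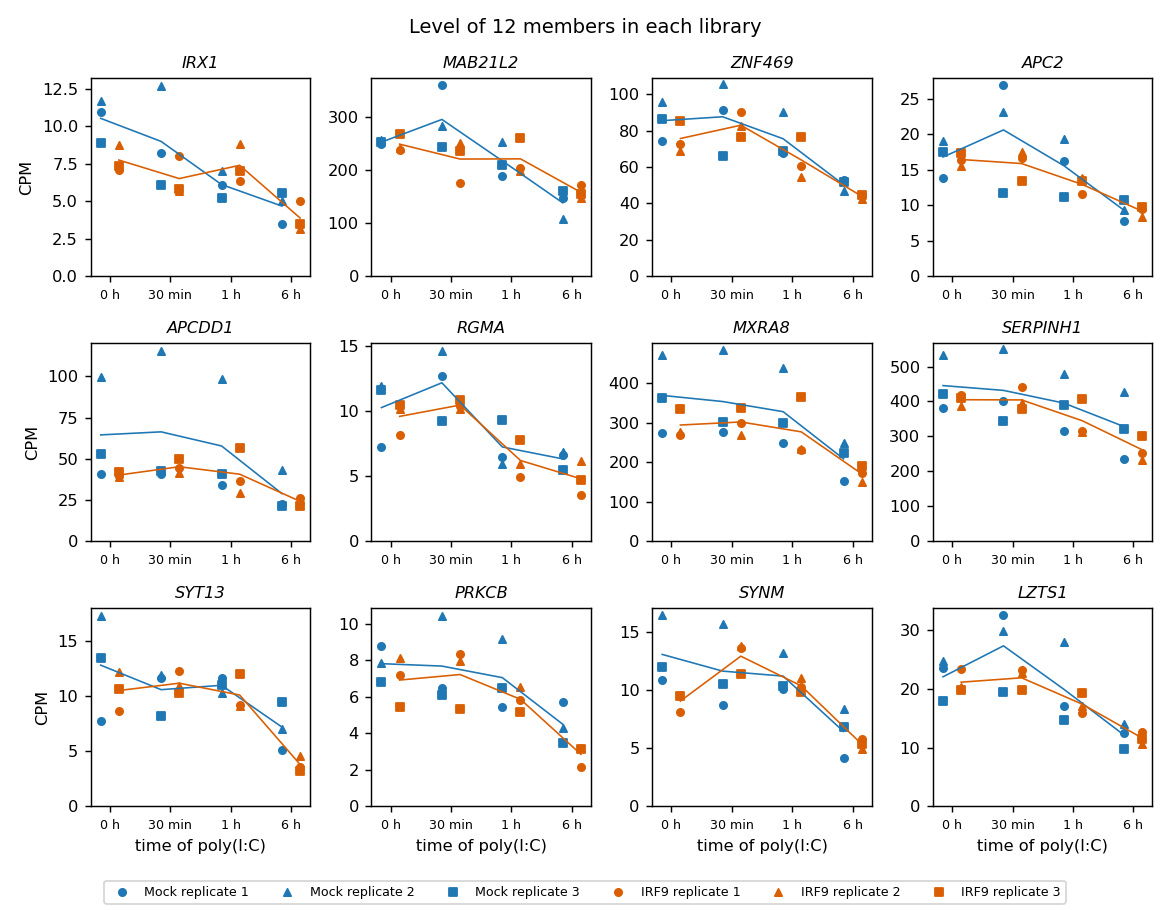
CPM of 12 of the genes in each library (vertical axis, from 0) by time of poly(I:C). Blue is Mock, orange the knockdown, symbols give the replicate number and lines join group means. For ZNF469, APC2, MAB21L2, MXRA8 and LZTS1 the 6 h symbols lie below all those of 0 h, and for APCDD1 the triangles of Mock replicate 2 lie above the other libraries of the same time.

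The cytoskeleton, the membrane skeleton and scaffolds gave 21 genes, with medians of -0.50 in Mock and -0.53 in the knockdown. LZTS1, a leucine zipper protein tied to microtubules (chromosome 22, 1736324 to 1748942), had 23.5, 24.7 and 18.0 CPM at 0 h and 12.5, 14.1 and 9.73 CPM at 6 h in Mock. The knockdown libraries had 23.4, 20.3 and 19.8 CPM and 12.7, 10.6 and 11.5 CPM. Neither genotype showed overlap between the 2 times. SYNM (chromosome 10, 16883519 to 16903955) had 10.8, 16.4 and 11.96 CPM at 0 h and 4.17, 8.36 and 6.79 CPM at 6 h in Mock, and 8.13, 9.59 and 9.47 CPM and 5.77, 4.91 and 5.38 CPM in the knockdown. Its 30 min libraries in the knockdown, at 13.6, 13.8 and 11.4 CPM, were above those of 0 h.

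EPB41, protein 4.1R, which ties spectrin to actin, differed by -0.49 in Mock and -0.76 in the knockdown. SYNE1 (chromosome 3, 48830749 to 49081074) had 43.2, 62.3 and 47.4 CPM at 0 h and 32.3, 46.6 and 36.4 CPM at 6 h in Mock, where replicate 2 made the times overlap. In the knockdown it had 46.3, 48.1 and 41.8 CPM and 29.4, 25.0 and 24.6 CPM, well apart. The dystrophin-associated genes SNTB2, a syntrophin, and SGCD, a sarcoglycan, differed by -0.74 and -0.49 in Mock and by -0.53 and -0.46 in the knockdown. PTRF, the caveolar coat protein cavin-1, differed by -0.56 in Mock and -0.45 in the knockdown. MAP2, a microtubule protein used as a neuronal marker, differed by -0.54 in Mock and -0.53 in the knockdown and lay between 2.52 and 8.33 CPM in the libraries of both times. Of the other neural markers, STMN2 and SNAP25 had no count in any library, whereas TUBB3 was at 216 to 326 CPM and NEFL at 2.39 to 6.72 CPM at 0 h and 6 h. The part of such markers in the differences was not tested.

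Genes of calcium and lipid signalling or of membrane traffic included PRKCB, protein kinase C beta (chromosome 14, 6666417 to 6744488). It had 8.79, 7.83 and 6.79 CPM at 0 h and 5.72, 4.29 and 3.46 CPM at 6 h in Mock. The knockdown had 7.17, 8.14 and 5.41 CPM and 2.17, 3.21 and 3.15 CPM, and the times did not overlap in either genotype. SYT13 (chromosome 5, 21850911 to 21868948) had 7.73, 17.2 and 13.4 CPM at 0 h and 5.10, 6.99 and 9.41 CPM at 6 h in Mock, with overlap. Its knockdown values were 8.63, 12.1 and 10.7 CPM and 3.60, 4.60 and 3.15 CPM, and 36.1% of the mean was left at 6 h, the lowest share of the set in that genotype. CAMK2A, a calcium-dependent kinase, differed by -0.69 in Mock and -0.43 in the knockdown, with overlap in both genotypes. PIK3C2B, a class II phosphoinositide kinase, differed by -0.62 in Mock and -0.39 in the knockdown.

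Glycan and sulfate transferases, receptors with channels, and transporters formed smaller groups of 5, 6 and 6 genes. ST6GALNAC3, a sialyltransferase (chromosome 8, 19066988 to 19267657), had 10.6, 20.2 and 11.01 CPM at 0 h and 4.25, 9.30 and 6.28 CPM at 6 h in Mock, and 9.39, 10.3 and 8.06 CPM and 5.97, 6.11 and 3.32 CPM in the knockdown. The times did not overlap in either genotype. The sulfotransferases CHST7, HS6ST2 and TPST1 differed by -0.59, -0.35 and -0.46 in Mock and by -0.78, -0.51 and -0.61 in the knockdown. Among receptors, F2RL2, a protease-activated receptor, differed by -0.68 in Mock and -0.70 in the knockdown, but it lies wholly inside IQGAP2, which itself differed by -0.12 in Mock and -0.68 in the knockdown. The lysophosphatidic acid receptor LPAR1 differed by -0.71 in Mock and -0.60 in the knockdown and the endothelin receptor EDNRA by -0.49 in Mock and -0.37 in the knockdown. ABCA5, a lipid transporter, differed by -0.62 in Mock and -0.74 in the knockdown.

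DNAJB1, a heat shock co-chaperone of the HSP40 family (chromosome 30, 364426 to 369686), behaved differently across the Mock libraries. It had 470.0, 212 and 392 CPM at 0 h, 674, 220.0 and 572 CPM at 30 min, 519, 208 and 437 CPM at 1 h and 406, 131 and 285 CPM at 6 h in Mock. The knockdown had 503, 503 and 504 CPM at 0 h and 436, 403 and 309.8 CPM at 6 h. Replicate 2 was the lowest Mock library at each time, against the direction of most genes of the set.

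The lowest mean of the 2 differences belonged to LOC107054844, the only long non-coding RNA of the set (chromosome 20, 11688486 to 11692457; -1.15 in Mock and -0.99 in the knockdown). Its Mock libraries had 11.8, 38.9 and 18.4 CPM at 0 h and 5.48, 14.97 and 7.88 CPM at 6 h, so replicate 2 was high at both times and the times overlapped. In the knockdown it had 11.01, 11.3 and 16.1 CPM and 4.14, 6.67 and 7.27 CPM, without overlap. The other 159 genes are annotated as protein-coding, and 45 of the 160 were put in no functional group, among them FAM129A (-0.66 in Mock and -0.70 in the knockdown) and LOC121108857 (-0.72 in Mock and -0.86 in the knockdown). At the edge of the choice, DOCK11 (-0.35 and -0.50 in Mock and the knockdown), HOMER3 (-0.35 and -0.38) and SPATA13 (-0.40 and -0.35) were just inside. RUNX1T1 (-0.35 and -0.40), B4GALT4 (-0.67 and -0.35) and PTBP3 (-0.68 and -0.35) were just outside before rounding.

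When the genes were chosen again from the libraries of 2 replicate numbers, the difference could be read in the third. Leaving out replicate 1, 2 or 3 gave 200, 149 and 177 genes. In the left-out libraries of Mock their median 6 h minus 0 h difference was -0.36, -0.51 and -0.37, where all genes with a mean of 5 CPM or more had -0.04, -0.07 and -0.03. In the left-out libraries of the knockdown it was -0.36, -0.47 and -0.42 against -0.05, -0.04 and -0.03. Between 87.6 and 97.3% of the chosen genes were lower at 6 h there, compared with 55.5 to 62.9% of all genes. Of the genes chosen again, 125, 106 and 115 were in the set. The left-out libraries belong to the same groups that chose the set, and nothing says that replicates were separate cultures. These values therefore carry no test and are not an independent check of the set.

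**Figure D4:**
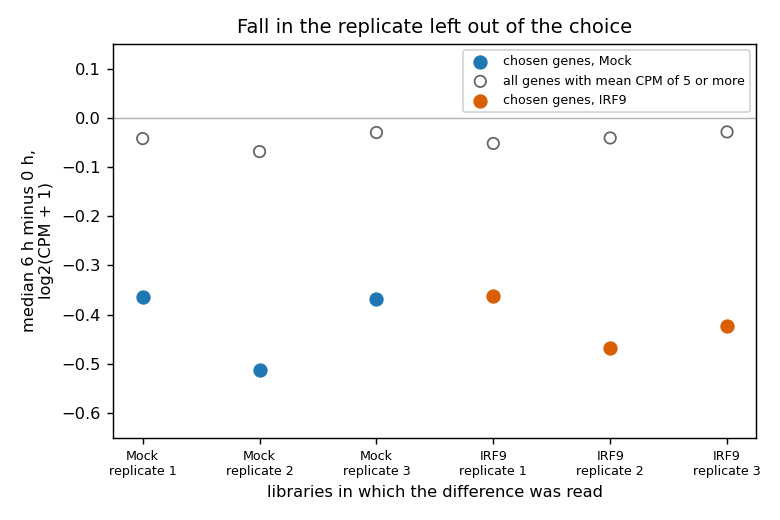
Median difference between 6 h and 0 h on the log2(CPM + 1) scale (vertical axis) in the libraries of the replicate number left out of the choice (horizontal axis). Filled points are the genes chosen from the other 2 numbers and open points all genes with a mean of 5 CPM or more; the filled points lie between -0.51 and -0.36.

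At 30 min and 1 h most of these mRNAs were still near their 0 h level. In Mock the mean of 146 of the 160 genes at 30 min, and of 135 at 1 h, lay nearer the 0 h mean than the 6 h mean, and without Mock replicate 2 the counts were 130 and 119. In the knockdown they were 155 and 138. The median change from 0 h was -0.03 at 30 min and -0.12 at 1 h in Mock, and 0.03 and -0.11 in the knockdown. Over all 9319 genes it was -0.03 and -0.02 in Mock, and 0.005 and -0.01 in the knockdown. Only 29 genes in Mock and 27 in the knockdown were at or above their 0 h mean at 1 h, compared with 72 and 91 at 30 min. The 0 h and 6 h levels entered the choice, so these positions are a description, and the counts of genes by position were not made over all genes.

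The 30 min and 1 h libraries took no part in the choice, and the step between them was tested with edgeR over 13000 genes. The fit estimated the spread from all libraries. Those of 0 h and 6 h, which chose the genes, thus entered its standard errors and p-values, here and for knockdown against Mock. None of the 160 genes was called at an adjusted p under 0.05 for the mean of both genotypes, where 0.0385% of all genes were called. At an unadjusted p under 0.05 there were 21 genes of the set, 13.1% of it against 7.0% of all genes tested, all lower at 1 h. Over the 9319 genes with a mean of at least 5 CPM, from which the set was chosen, the share was 7.57%. The median log2 difference of the set was -0.13, with 131 genes below 0, and that of all genes tested was -0.01, with 52.1% below 0. Without replicate 2 of Mock at 30 min the median of the set was -0.04, with 96 genes below 0, and without replicate 1 of Mock at 1 h it was -0.08. Leaving out each of the 12 libraries in turn gave -0.19 to -0.04. Without the 4 libraries of Mock replicate 2 the median was -0.11, with 119 genes below 0. In that fit 36 genes of the set had an unadjusted p under 0.05, 22.5% against 10.6% of all genes tested. With all libraries, no gene of the set was called within Mock alone (0% of all genes). An unadjusted p under 0.05 was found for 25, 15.6% of the set against 10.1% of all genes tested and 11.8% of the 9319 genes. Within the knockdown alone none was called (0.00769% of all genes), and 5 had such a p, 3.1% against 2.4% of all genes tested and 1.83% of the 9319 genes. The medians were -0.12 in Mock and -0.14 in the knockdown. Both moved when 1 library was left out. The median in Mock changed sign, and that in the knockdown stayed below 0, at -0.22 to -0.08 over the 12 settings. Within Mock the median was 0.06 without replicate 2 and -0.22 without replicate 3 at 30 min, and -0.01, -0.24 and -0.04 without replicates 1, 2 and 3 at 1 h. It was -0.09 without all 4 libraries of Mock replicate 2. Within the knockdown it was -0.09 without replicate 1 at 30 min, and -0.08, -0.09 and -0.22 without replicates 1, 2 and 3 at 1 h. DESeq2 called none of the set in these comparisons either. An edgeR fit of the 30 min and 1 h libraries alone called none of the set, and for the mean of both genotypes 1 of 12525 genes tested. For that mean, 15 genes of the set had an unadjusted p under 0.05, 9.38% against 4.53% of all genes tested. The shares were 8.13% against 7.23% within Mock and 1.25% against 1.42% within the knockdown.

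RGMA had the smallest p of the set for this step, with a log2 difference of -0.74 (SE 0.16, adjusted p = 0.223) by edgeR. It was followed by MIDN, a nuclear protein that takes proteins to the proteasome, with -0.44 (SE 0.11, adjusted p = 0.445) by edgeR, and by THRA with -0.38 (SE 0.10, adjusted p = 0.453) by edgeR. The values of MIDN in the knockdown were 27.6, 37.1 and 35.1 CPM at 30 min and 26.8, 26.7 and 28.6 CPM at 1 h, and in Mock 56.4, 37.1 and 35.5 CPM and 30.5, 27.1 and 28.0 CPM. Mock did not overlap between these times, and the knockdown overlapped, since its replicate 1 at 30 min lay among the 1 h libraries. With the replicate number as a block within each genotype, 2 genes of the set were called for the mean of both genotypes, MIDN and RGMA, where 0.115% of all genes were. In that fit 5 were called in Mock, where 1.84% of all genes were, among them MIDN, NAV1, NFIX and THRA. Without replicate 3 of Mock at 30 min, 3 genes of the set were called for the mean and 14 within Mock, where 0.256% and 2.82% of all genes were. The difference between genotypes in this step gave no call in the set (0% of all genes). At an unadjusted p under 0.05 there were 6 genes, 3.75% of the set against 4.81% of all genes tested. The share of the 9319 genes with a mean of at least 5 CPM was 4.86%.

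Knockdown and Mock cells were compared at 30 min and 1 h, the times outside the choice. For the mean of both times no gene of the set was called, where 0.00769% of all genes were. An unadjusted p under 0.05 was found for 26, 16.3% of the set against 10.8% of all genes tested. Over the 9319 genes with a mean of at least 5 CPM, from which the set was chosen, the share was 12.9%. The median log2 difference, knockdown minus Mock, was -0.16, with 132 of the 160 genes below 0. Over all genes tested the median was -0.01, with 51.3% below 0, and their medians were -0.003 at 30 min and 0.001 at 1 h. At 30 min alone no gene of the set was called (0.00769% of all genes), and the median of the set was -0.13. There 23 genes had an unadjusted p under 0.05, 14.4% of the set against 13.3% of all genes tested. The share of the 9319 genes was 16.3%, above that of the set. At 1 h alone none was called (0% of all genes), and the median was -0.16. An unadjusted p under 0.05 was found for 6, 3.75% of the set against 2.32% of all genes tested and 1.76% of the 9319 genes. Without the 4 libraries of Mock replicate 2 the medians were -0.01 for the mean of both times, 0.03 at 30 min and 0.00 at 1 h, and 84 genes lay below 0 for the mean. In that fit 14 genes of the set had an unadjusted p under 0.05 for the mean, 8.75% against 8.95% of all genes tested. The shares were 19.4% against 17.8% at 30 min and 1.25% against 2.23% at 1 h. Without only the library of Mock replicate 2 at 30 min or at 1 h, the median for the mean of both times was -0.08 or -0.09. The median at 30 min was -0.28 without replicate 3 of Mock at 30 min, and that at 1 h was -0.10 without replicate 1 of the knockdown at 1 h. Without replicate 3 of Mock at 30 min, 15 genes of the set were called at 30 min and 6 for the mean, where 5.58% and 1.12% of all genes were. DESeq2 called none of the set in these comparisons with all libraries. An edgeR fit of the 30 min and 1 h libraries alone called 0 of 12525 genes tested in each comparison. At an unadjusted p under 0.05 it had 10.0% of the set against 7.14% of all genes tested for the mean of both times. The shares were 9.38% against 9.72% at 30 min and 2.50% against 1.62% at 1 h.

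Single genes show how Mock replicate 2 enters these values. MXRA8 had 247, 437 and 298 CPM in Mock at 1 h and 232, 234 and 364 CPM in the knockdown, with a log2 difference over both early times of -0.22 (SE 0.15, adjusted p = 0.576) by edgeR. APCDD1 had 40.9, 115 and 43.0 CPM in Mock at 30 min and 44.3, 41.6 and 49.9 CPM in the knockdown, and its difference was -0.51 (SE 0.26, adjusted p = 0.487) by edgeR. In both genes the other Mock libraries lay within or next to the range of the knockdown.

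For 6 h against 0 h, the same fit called 18 genes of the set lower in Mock, where 0.231% of all genes were called lower, and 22 in the knockdown, where 0.292% were. The choice used this contrast, so nothing is read from these counts or from those of the other fits that follow. With the replicate number as a block, 87 genes of the set were called lower in Mock, where 1.45% of all genes were, and 95 in the knockdown, where 1.78% were. Without the libraries of Mock replicate 2 the counts were 13 in Mock and 61 in the knockdown, where 0.152% and 0.85% of all genes were called lower.

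The pathway lists place these genes among their relatives, counted over members with a mean of at least 5 CPM. The lists do not hold every gene of their pathway. Over all 9319 genes, 1.72% were in the set, and the median differences were -0.05 in Mock and -0.04 in the knockdown. Of all 13000 genes tested, 252 were called higher and 30 lower at 6 h in Mock, and 186 higher and 38 lower in the knockdown. Of 40 genes listed as developmental transcription factors, 4 were in the set (IRX1, MAB21L2, ALX4 and ZNF462). MAB21L2 is on the list although it is described above only as a nuclear protein. The median difference of all 40 was -0.05 in Mock and -0.08 in the knockdown. Of the 50 tested genes of this list, edgeR called 1 higher and 2 lower at 6 h in Mock, and 2 higher and 4 lower in the knockdown. TBX3, a T-box factor, was higher in both, with log2 differences of 1.03 (SE 0.09, adjusted p = 1.07e-07) in Mock and 0.87 (SE 0.09, adjusted p = 1.34e-06) in the knockdown by edgeR. Axon guidance had 5 of 30 in the set, with medians of -0.13 and -0.14 over the list. Of its 41 tested genes, 3 were called higher and 0 lower in Mock, and 2 higher and 1 lower in the knockdown, the semaphorin gene SEMA6A being higher by 1.01 and 0.73 on the log2 scale. Of 27 spectrin, ankyrin, plakin and nesprin linkers, 4 were in the set, with list medians of -0.15 and -0.18, and of its 29 tested genes 2 were called lower and 0 higher in each genotype. Each list was drawn up with earlier results of these data known.

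Hedgehog and cilium genes had 2 of 19 in the set and list medians of -0.21 in Mock and -0.16 in the knockdown. The Wnt pathway had 2 of 27, with medians of -0.13 and -0.18, and none of its 33 tested members was called in either direction. APCDD1 and APC2, described above with Wnt signalling, were in the set but not on that list. BMP and TGF-beta signalling had 2 of 30, with medians of 0.01 and -0.03, and of its 34 tested genes 3 were called higher and 1 lower in Mock, and 2 higher and 1 lower in the knockdown. Its ligand subunit gene INHBA was higher at 6 h by 1.83 in Mock and 1.49 in the knockdown on the log2 scale. Protein kinase C, calcium and phosphoinositide signalling had 3 of 38, and growth factor receptors and adaptors 1 of 26. In the first of these, 3 of 42 tested genes were called higher and 0 lower in Mock, and 2 higher and 2 lower in the knockdown. None of the 16 Notch pathway genes, 14 ion channels, 59 chromatin regulators or 42 genes of S, G2 and M phase on the lists was in the set. TRPV3, an ion channel outside that list, was in the set, with log2 differences of -0.40 in Mock and -0.80 in the knockdown by edgeR. Called higher at 6 h were 1 of 20 tested Notch genes (Mock), 3 and 2 of 20 ion channels (Mock and knockdown) and 1 of 30 growth factor receptors and adaptors (Mock). Called lower was 1 of 60 chromatin regulators (knockdown). Over all 13000 genes tested, 252 were called higher in Mock and 186 in the knockdown, where 38 were called lower. None of 21 Hedgehog genes and 42 cell cycle genes was called in either direction. None of the 12 fibroblast markers was in it either, and their medians were -0.01 in Mock and -0.07 in the knockdown.

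The genes of the set covered longer stretches of the genome than expressed genes in general. Their median span from start to end in the GRCg7b annotation was 27490.5 bases, against 16850 bases over all 9319 genes, and 16.3% of them against 7.90% spanned more than 100000 bases. When the 9319 genes were ordered by span and cut into 5 equal groups, 0.966% of the shortest group were in the set, then 1.07, 1.72 and 2.04%, and 2.79% of the longest. Over all genes the median 6 h minus 0 h difference in the knockdown went from 0.03 in the shortest group to -0.09 in the longest. In Mock it went the other way, from -0.09 to -0.03. Span is a description here and was given no test. Of the 158 genes placed on a chromosome, 25 shared bases with another expressed gene, including the pair of ITGA11 and CORO2B, both in the set, whose annotated ends overlap by 995 bases.

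**Figure D5:**
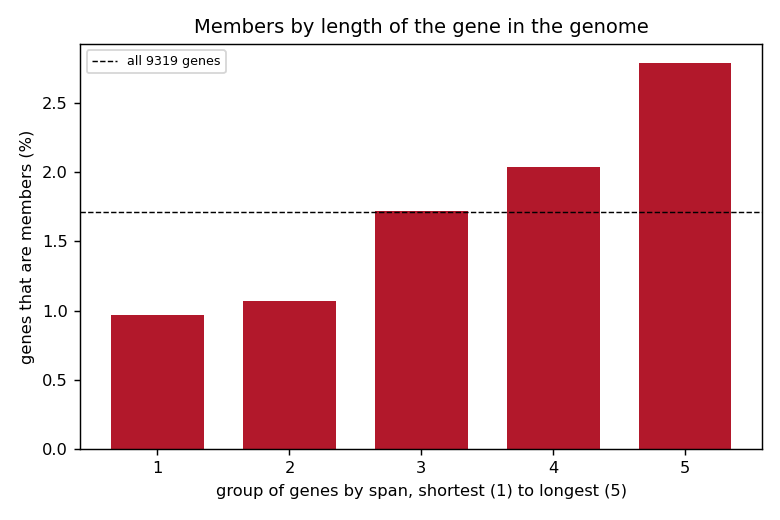
Share of genes in the set (vertical axis, %) by group of all 9319 genes ordered by span in the genome and cut into 5, from the shortest to the longest (horizontal axis). The dashed line is the share over all genes, 1.72%, and the bars go from 0.966% to 2.79%.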

How the data were processed

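Messenger RNA was sequenced from directional, poly(A)-selected libraries, per the labels' protocols. The authors deposited whole-number counts per gene, not normalized, in a table for each library. The build was GRCg7b, and the tools named were STAR 2.7.11b, HTSeq 2.0.5, Trim Galore 0.6.10, FastQC 0.12.1 and edgeR 3.40.2, per the submitters' processing notes. No strand setting of HTSeq is stated, so counts of overlapping and antisense genes are uncertain. The 5 summary lines of the counter (reads in no gene, 14.6 to 18.8% of a library, ambiguous reads, 1.18 to 1.33%, and reads without a unique alignment, 3.43 to 4.25%) stayed out of totals. A growth temperature in the labels is unusual for this line.

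From the deposited counts of 25466 genes, plain CPM was computed with Python 3.11.15. The 160 genes, the pathway and marker lists and the tests were chosen with earlier results of these data known, and the functional groups were assigned once the genes were known. Named are the 24 genes with the lowest mean difference, the 3 of highest mean CPM, the 3 just inside and the 3 just outside the threshold, the genes of pathway lists and IRF9. Genes named beyond these were chosen after their values were seen. Some genes that this rule names, and 1 pathway list, are not reported here. All 160 genes matched the RefSeq gene table by symbol, which gave positions in GRCg7b.

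Tests used edgeR 4.0.16 (filterByExpr, TMM, glmQLFit and glmQLFTest) in R 4.3.3 on 13000 genes, with 1 model of 8 group means that left 16 residual degrees of freedom; the common coefficient of variation between libraries of a group, beyond counting error, was 14%. The filter kept all 160 genes, also in the comparisons that took no part in the choice. P-values are two-sided and Benjamini-Hochberg adjusted over all genes tested, and a gene was called at an adjusted p under 0.05. The code was tested on simulated data. Alternatives were RLE and no scaling, no filter, DESeq2 1.42.0, the replicate number as a block, fewer libraries, and other settings of the choice. Same-numbered Mock libraries deviated together from their group means, with correlations of 0.11 to 0.387, each above 0.1. Those of the knockdown gave -0.00861 to 0.147. Same-numbered libraries of different genotypes gave -0.145 to 0.151 at 30 min and 1 h. All Mock values but the lowest lay above that range, and the highest, 0.387 and 0.378, came from replicate 2. The Mock and knockdown ranges overlap, so the correlations do not settle which libraries are paired. If Mock libraries of 1 number are paired, the main fit leaves that out, and calls with the replicate block are given above for that reason. The model of group means used no pairing, in Mock or in the knockdown. The replicate block was an alternative, fitted within each genotype, the knockdown included. Promoter motifs, exon counts and protein lengths were not analysed here.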

Additional observations from a re-analysis of the deposited data

How the results depend on the processing

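The choice of genes gave 90 genes at a pseudocount of 5, 243 without a minimum CPM and 52 at a threshold of -0.5, against 160. TMM-scaled CPM gave 114 and a pseudocount of 0.5 gave 182. Leaving out 1 library at a time gave 92 (without Mock replicate 2 at 0 h) to 206 genes (without Mock replicate 2 at 6 h), and without both of these libraries 146 genes, 124 of them shared. For 1 h against 30 min, no gene of the set was called by edgeR with all libraries, but 1 was for the mean of both genotypes and 3 in Mock without the low-count filter. Without that filter, 8 and 91 of all 20360 genes tested were called. With the replicate block within each genotype the counts of the set were 2 and 5, while the knockdown gave 0. Leaving out 1 library gave 0 to 3 for the mean and 0 to 14 in Mock. For the knockdown against Mock, 1 gene of the set was called at 30 min without the filter, where 195 of all 20360 genes tested were. Leaving out 1 library gave 0 to 15 genes of the set at 30 min, 0 to 6 for the mean and 0 at 1 h. The highest values came without replicate 3 of Mock at 30 min. A block common to both genotypes, chosen after seeing the data, gave 0. For 6 h against 0 h, fits chosen after seeing the data called 41 genes of the set lower in Mock and 47 in the knockdown without the filter. The counts were 87 and 95 with the replicate block, and 13 and 61 without the libraries of Mock replicate 2. Without the filter, 54 of all 20360 genes tested were called lower in Mock and 67 in the knockdown. Nothing is read from the counts for 6 h against 0 h, because the choice used that contrast. IRF9 differed by -0.96 in the 12 libraries of 30 min and 1 h alone (adjusted p = 0.102 by edgeR) and by -0.95 when both times were summed per replicate number (adjusted p = 0.929 by edgeR), a fit chosen after seeing the data. Its other settings kept the call for the mean of both times, at -1.07 to -0.84 when 1 library was left out. The causes of these changes were not tested. The median standard error of the set's log2 difference between 1 h and 30 min was 0.14. Planned comparisons of promoter motifs, exon counts and protein lengths were not run.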
